A study of Mus musculus with 6 samples.

Results

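The 8 genes described here are early oocyte genes of the follicle reserve: Ddx4, Dazl, Sohlh1, Lhx8, Figla, Nobox, Uchl1 and Taf4b. They come from a list of symbols drawn up with earlier results of these data known, and all 8 were matched to 1 Ensembl identifier each among the 55487 genes in the count table. RNA came from whole ovaries of 3 wildtype and 3 GalTKO samples (genotype GalT-/-), taken at postnatal day 49 from mice of the strain background cbl/6-ola/129. Both genotypes had eaten food with 2.5% galactose for 4 weeks, so no group without added galactose is part of the comparison. GalTKO mice lack galactose-1-phosphate uridylyltransferase, an enzyme needed to break down galactose, and the labels give no litter, cycle stage, or number of animals per sample. P-values therefore measure the spread between these samples, which may be technical. In whole tissue, fewer oocytes and less RNA per oocyte cannot be told apart.

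The follicle reserve is the pool of primordial follicles, each a small arrested oocyte wrapped in flat granulosa cells. It is laid down around birth and is drawn on through reproductive life. A small set of germline genes builds and keeps it: RNA-binding proteins carried over from the germ cell stage (DDX4, DAZL), transcription factors that start the oocyte program (SOHLH1, LHX8, FIGLA, NOBOX), a gonad-enriched subunit of the general transcription factor TFIID (TAF4B), and the deubiquitinating enzyme UCHL1, which is abundant in oocytes and in neurons. Several of them stay on as the oocyte grows, so their levels are not specific to primordial follicles.

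Promoter sequence is shown because SOHLH1 and FIGLA are basic helix-loop-helix factors, a class that binds the E-box, and NOBOX and LHX8 are homeodomain factors that bind short AT-containing elements. RefSeq promoter windows on GRCm38.p6 were searched for 7 of the 8 genes. No window of Taf4b was searched, so nothing is said here about its promoter. In the 250 bases before the annotated start, both strands were searched for the E-box CANNTG and for 3 homeodomain-type elements, which were TAATTA, then its variant TAATTG, and the LHX8-type element TGATTG. Below, the part of each window outside every GENCODE exon of the gene is printed 5′ to 3′, with motif matches in capitals, for Sohlh1, Dazl and Uchl1, whose 3 GalTKO values were all below wildtype, and for Nobox, whose values overlapped.
Sohlh1, chr2:25847249-25847498, minus strand: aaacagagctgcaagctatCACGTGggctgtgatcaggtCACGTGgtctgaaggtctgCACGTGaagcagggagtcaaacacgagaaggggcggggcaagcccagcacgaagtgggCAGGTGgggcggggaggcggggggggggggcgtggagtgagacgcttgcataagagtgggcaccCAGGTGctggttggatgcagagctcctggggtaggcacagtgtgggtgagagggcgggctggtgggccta
Dazl, chr17:50293637-50293870, minus strand: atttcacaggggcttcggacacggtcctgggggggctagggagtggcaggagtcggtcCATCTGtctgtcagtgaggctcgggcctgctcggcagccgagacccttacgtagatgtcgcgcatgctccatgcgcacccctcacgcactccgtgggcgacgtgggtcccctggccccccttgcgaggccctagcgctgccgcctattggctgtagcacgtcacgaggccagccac
Uchl1, chr5:66675871-66676090, plus strand: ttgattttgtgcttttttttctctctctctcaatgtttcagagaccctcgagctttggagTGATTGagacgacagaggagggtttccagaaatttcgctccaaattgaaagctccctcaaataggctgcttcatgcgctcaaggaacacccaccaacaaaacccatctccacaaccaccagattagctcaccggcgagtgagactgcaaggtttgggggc
Nobox, chr6:43309555-43309804, minus strand: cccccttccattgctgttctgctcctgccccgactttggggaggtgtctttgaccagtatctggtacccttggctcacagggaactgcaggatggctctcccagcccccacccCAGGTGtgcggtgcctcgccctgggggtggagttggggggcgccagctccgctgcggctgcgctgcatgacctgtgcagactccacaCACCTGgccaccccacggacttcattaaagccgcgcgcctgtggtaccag
The Sohlh1 window held 5 E-boxes, 3 of them spelled CACGTG. An E-box was present in 66.2% of 32807 promoter windows of this length, but 5 or more in 1.16%, and 3 or more CACGTG in 0.061%. CACGTG and the counts of repeated matches were looked for after the member windows had been seen, and 6.02% of windows held at least 1 CACGTG. Ddx4 had 1 E-box, also CACGTG, in its full window, Dazl had 1, Figla and Nobox had 2 each, and Lhx8 and Uchl1 had none. TGATTG, present in 12.7% of windows, was found in Uchl1 and Ddx4. No member window held TAATTA, which 4.85% of windows had, or its variant TAATTG, which 7.18% had. The Ddx4 matches lay 29 and 111 bases before the RefSeq start, but inside the GENCODE gene, which begins further upstream and leaves 85 of the 250 bases outside its exons. The Figla window also lay inside the GENCODE gene, outside its exons. A stretch just after the RefSeq start matched a GENCODE transcript of the gene for every searched window except that of Ddx4. A match is a description of letters, not a binding site.

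The 6 libraries held between 19232486 and 25729564 counts. From here on, the 3 values of a genotype are listed in the order of replicates 1, 2 and 3. Galt, which checks the labels, had 445, 380 and 402 counts among the wildtype libraries but 4, 6 and 0 among the GalTKO libraries, where a count of 0 allows up to 3 counts. Markers of growing oocytes were tested for all 23 listed genes and markers of granulosa cells for all 12, and none was at 0. The growing-oocyte score, the mean log2 CPM (counts scaled to library size) of those 23 genes, was 3.97, 4.10 and 3.59 (wildtype) and 4.02, 3.90 and 3.96 (GalTKO). Wildtype replicate 3 thus had the lowest oocyte transcript level of the 6 libraries. Mitochondrially encoded genes took from 1.37% to 1.97% of wildtype counts and from 2.22% to 3.53% of GalTKO counts, and the part of this in the results below was not tested.

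The fitted log2 fold changes of the 8 early oocyte genes, GalTKO minus wildtype, lay on both sides of 0, and none passed the test. Ddx4, Dazl, Sohlh1 and Uchl1 lay between -1.53 and -0.44, and Lhx8, Figla, Nobox and Taf4b between 0.08 and 0.28. The test was edgeR's quasi-likelihood test at a Benjamini-Hochberg adjusted p under 0.05, a threshold that 2.55% of the 16957 tested genes passed. At an unadjusted p under 0.05 there were 4 members, all lower, where 8.90% of all tested genes were lower at that level. DESeq2 called 1 member, Uchl1, against 6.19% of genes, and limma voom called 0, against 3.12%. The 3 GalTKO values lay below all 3 wildtype values for 3 members, Dazl, Sohlh1 and Uchl1, as they did for 12.0% of tested genes. The median log2 fold change of the 8 was -0.18, beside 0.02 for all tested genes. With 1 library left out it ran from -0.34, without GalTKO replicate 3, to -0.14, and it was -0.39 without the third library of both genotypes.

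**Figure D1:**
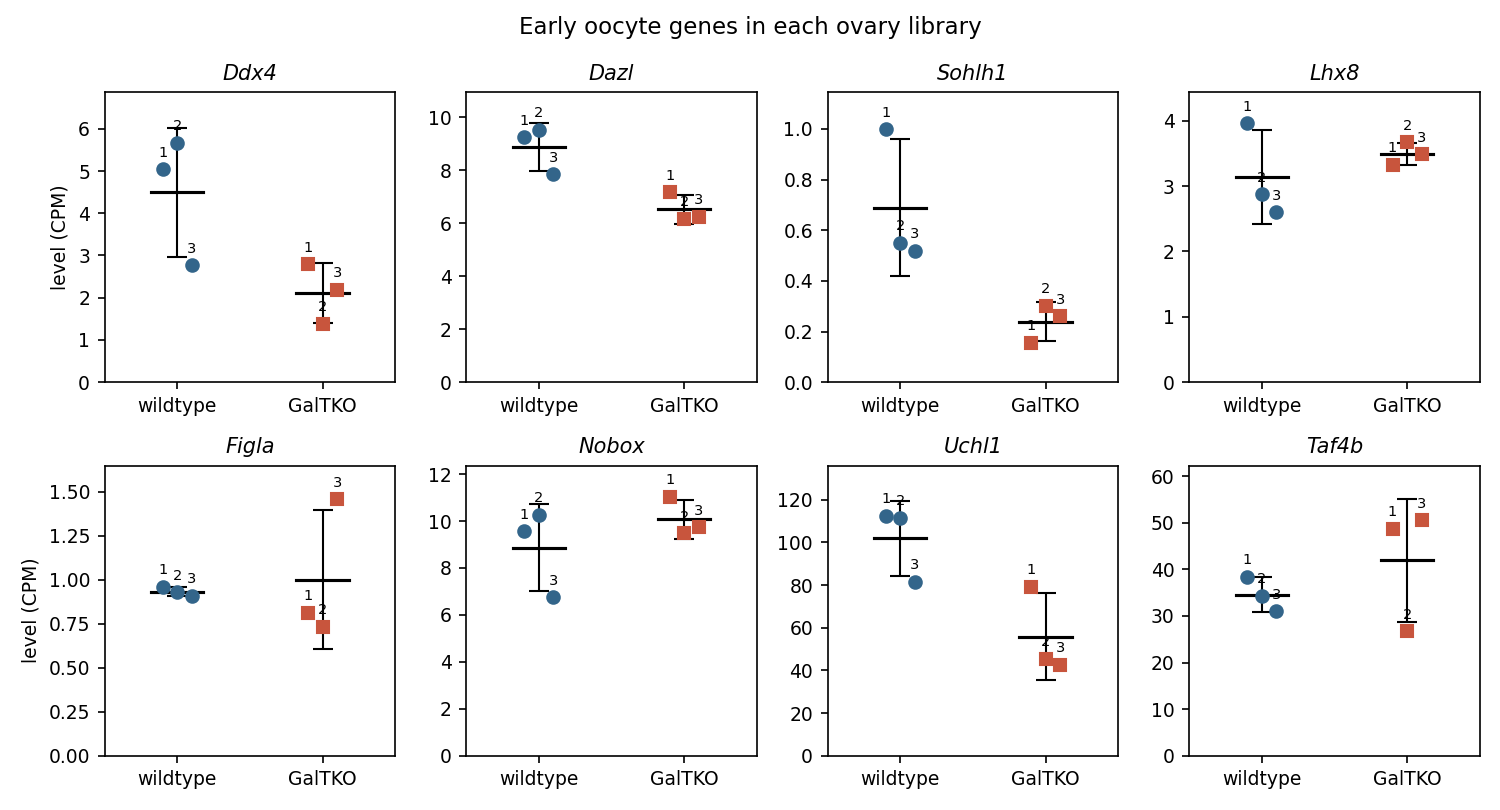
Level of each early oocyte gene (CPM, linear axis from 0) in the 3 wildtype and 3 GalTKO libraries; points are libraries numbered by replicate, the line is the mean and the bar 1 SD. Dazl, Sohlh1 and Uchl1 show no overlap between genotypes, Ddx4 overlaps at about 2.8 CPM, and the other 4 genes overlap fully or in part.

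Ddx4 encodes the germ cell RNA helicase VASA, a DEAD-box protein of the germ granule (ENSMUSG00000021758; GRCm38 chromosome 13, 112598333 to 112652475, minus strand). It measured 5.04, 5.67 and 2.77 CPM in wildtype but 2.79, 1.38 and 2.19 CPM in GalTKO libraries. Wildtype replicates 1 and 2 stood well above the rest, while wildtype replicate 3 and GalTKO replicate 1 were at nearly the same level. The means were 4.49 ± 1.52 and 2.12 ± 0.71 CPM (SD, n = 3), a log2 fold change of -1.08 ± 0.35 (SE; edgeR adjusted p = 0.166). Its spread among replicates was wide for its depth. The coefficient of variation was 33.9% in wildtype and 33.3% in GalTKO libraries, where counting error alone gives 9.62% and 14.3%. The fitted biological coefficient of variation, 29.8%, was larger than that of 87.7% of tested genes.

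Dazl encodes an RNA-binding protein that controls translation in germ cells (ENSMUSG00000010592; chromosome 17, 50279395 to 50293636, minus strand). Its levels were 9.24, 9.52 and 7.84 CPM in wildtype but 7.16, 6.17 and 6.25 CPM in GalTKO libraries. Every GalTKO library was below every wildtype library, by a modest margin. The means of 8.86 ± 0.90 and 6.53 ± 0.55 CPM (SD, n = 3) gave a log2 fold change of -0.44 ± 0.15 (SE; edgeR adjusted p = 0.202). This was the smallest difference among the 4 lower genes and the one with the tightest replicates, with coefficients of variation of 10.1% and 8.45% beside counting errors of 6.86% and 8.18%.

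Sohlh1 encodes a basic helix-loop-helix factor that acts at the start of oocyte differentiation and is normally switched off as the oocyte grows (ENSMUSG00000059625; chromosome 2, 25842995 to 25847248, minus strand). It was close to the limit of detection. The libraries held 25, 13 and 12 counts in wildtype but 4, 7 and 5 counts in GalTKO libraries. Scaled to library size, the wildtype mean was 0.690 ± 0.269 CPM and the GalTKO mean 0.239 ± 0.076 CPM (SD, n = 3). The groups did not overlap, and wildtype replicate 1 was the highest. The summed counts were 50 in wildtype (exact Poisson 95% interval 37.1 to 65.9) and 16 in GalTKO (9.15 to 26.0), counting error only. The log2 fold change, -1.53 ± 0.47 (SE; edgeR adjusted p = 0.153), was the most negative of the 8, with a 95% interval from -2.62 to -0.44. Without wildtype replicate 1 it was -1.16.

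Uchl1 encodes a ubiquitin C-terminal hydrolase that is plentiful in oocytes and is also a general marker of neurons (ENSMUSG00000029223; chromosome 5, 66676091 to 66687234, plus strand). It reached 112.6, 111.5 and 81.5 CPM in wildtype but 79.1, 45.5 and 42.5 CPM in GalTKO libraries. The groups did not overlap, but GalTKO replicate 1 came within a few CPM of wildtype replicate 3. The means were 101.9 ± 17.6 and 55.7 ± 20.3 CPM (SD, n = 3), a log2 fold change of -0.87 ± 0.26 (SE; edgeR adjusted p = 0.162). DESeq2 gave an adjusted p of 0.00832 for it, and edgeR without GalTKO replicate 1 gave -1.21 with an adjusted p of 0.0151; over all its alternatives the adjusted p ran from 0.00832 to 0.434. With 817 to 2816 counts per library, counting error is 2.02% in wildtype and 2.77% in GalTKO, so depth does not set its spread of 17.3% and 36.5%. An antisense gene, Uchl1os, shares 295 exon bases with it. No source used here gives the strand setting of the counting; Uchl1os held 3 counts in all wildtype and 15 in all GalTKO libraries.

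Because Uchl1 is also neuronal, a list of 21 neuron and glia markers was read beside it. Of these 12 were tested; edgeR called 0 of them, 1 had an unadjusted p under 0.05, and Nefl had no count in any library. The median log2 fold change of the tested markers was 0.15. The summed level of all listed markers, tested or not, ran from 56.0 to 57.1 CPM in wildtype and from 47.6 to 73.3 CPM in GalTKO libraries, which overlap. The markers with the smallest p were Rbfox3, a neuronal splicing factor gene (1.13 ± 0.30), Gap43, of growing axons (-1.04 ± 0.47), and the synaptic vesicle gene Syp (0.41 ± 0.23; log2, SE), which did not point one way.

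Figla encodes the basic helix-loop-helix factor that turns on the zona pellucida genes and is required for primordial follicles to form (ENSMUSG00000030001; chromosome 6, 86016171 to 86020996, plus strand). It had 24, 22 and 21 counts among wildtype and 21, 17 and 28 counts among GalTKO libraries, or 0.960, 0.930 and 0.910 CPM against 0.813, 0.733 and 1.46 CPM. The wildtype libraries were almost equal, closer than counting error alone would place them (a coefficient of variation of 2.69% against 21.2%), and GalTKO replicate 3 was the highest of all. The log2 fold change was 0.08 ± 0.35 (SE; edgeR adjusted p = 0.932), with a 95% interval from -0.72 to 0.89, and it was -0.27 without GalTKO replicate 3. No direction can be given for Figla at this depth.

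Nobox and Lhx8 encode the homeodomain and LIM-homeodomain factors of the early oocyte. Nobox (ENSMUSG00000029736; chromosome 6, 43303674 to 43309554, minus strand) measured 9.56, 10.28 and 6.76 CPM among wildtype and 11.03, 9.49 and 9.73 CPM among GalTKO libraries. Only wildtype replicate 3, the library with the lowest growing-oocyte score, stood apart. The log2 fold change was 0.19 ± 0.18 (SE; 95% interval -0.23 to 0.60; edgeR adjusted p = 0.661). Lhx8 (ENSMUSG00000096225; chromosome 3, 154306294 to 154330659, minus strand) measured 3.96, 2.88 and 2.60 CPM among wildtype and 3.33, 3.67 and 3.49 CPM among GalTKO libraries. All GalTKO values lay inside the wildtype range, and the log2 fold change was 0.15 ± 0.23 (SE; 95% interval -0.37 to 0.67; edgeR adjusted p = 0.789). These intervals exclude a fall as large as the fitted values of Ddx4, Dazl, Sohlh1 and Uchl1. Those genes have intervals of their own, however. The Lhx8 interval overlaps those of Ddx4 (-1.88 to -0.28), Dazl (-0.79 to -0.09) and Uchl1 (-1.49 to -0.25). Of the 4, the Nobox interval overlaps that of Dazl only, and neither overlaps that of Sohlh1 (-2.62 to -0.44).

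Taf4b (ENSMUSG00000054321) encodes the TFIID subunit needed in mice for a normal follicle pool, and it is also made by granulosa cells. It measured 38.4, 34.3 and 31.0 CPM among wildtype and 48.7, 26.7 and 50.5 CPM among GalTKO libraries. GalTKO replicates 1 and 3 were above every wildtype library and GalTKO replicate 2 was below them all. The log2 fold change was 0.28 ± 0.24 (SE; 95% interval -0.27 to 0.83; edgeR adjusted p = 0.611). Without GalTKO replicate 2 it was 0.52, with an edgeR adjusted p of 0.0406, the single library whose removal took Taf4b past the threshold. That fit called 742 genes in all, against 433 with all libraries.

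**Figure D2:**
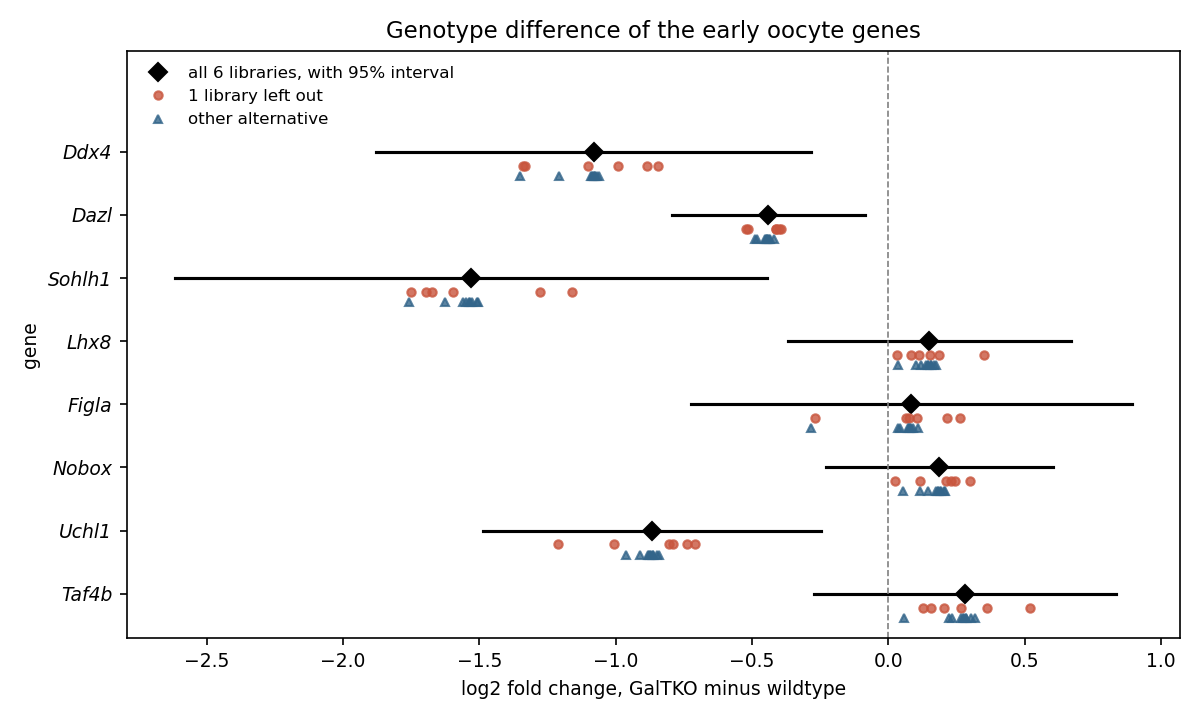
Log2 fold change (GalTKO minus wildtype) of each early oocyte gene; diamonds with lines are the fit to all 6 libraries with its 95% interval, circles leave out 1 library each, and triangles are the other alternatives. The intervals of Ddx4, Dazl, Sohlh1 and Uchl1 lie below 0, before adjustment for the number of genes tested, and those of the other 4 genes include 0; circles and triangles of Figla fall on both sides.

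Among themselves the genes spanned a wide range of levels. Per kilobase of exon, Uchl1 was highest in wildtype ovaries at 62.4 ± 10.8 CPM per kilobase (SD, n = 3), followed by Taf4b at 6.71 ± 0.73, Nobox at 4.41 ± 0.92 and Dazl at 2.32 ± 0.23. Below these came Ddx4 at 1.49 ± 0.51, Lhx8 at 1.24 ± 0.28, Figla at 1.12 ± 0.03 and Sohlh1 at 0.535 ± 0.209 CPM per kilobase. The wildtype ranges of Ddx4 and Lhx8 overlapped, as did those of Lhx8 and Figla, so their order is not resolved. The other neighbours in this order did not overlap. In GalTKO ovaries the means of the first 4 came in the same order, although the ranges of Taf4b and Nobox overlapped. The mean of Ddx4, 0.703 ± 0.234 CPM per kilobase, was below those of Lhx8 (1.38 ± 0.07) and Figla (1.20 ± 0.48). The GalTKO range of Figla, 0.877 to 1.74, overlapped those of Dazl (1.61 to 1.87), Lhx8 and Ddx4, so its place is not resolved. Ddx4 and Lhx8 did not overlap. Lengths are unions of all annotated exons, so a gene with several transcripts has its level understated.

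Each gene was then set against the growing-oocyte score of the same library. That score is built from markers of growing oocytes, so it does not measure the RNA of primordial follicles. On this scale, log2 CPM minus the score, Ddx4 stood at -1.61, -1.58 and -2.07 in wildtype and at -2.50, -3.35 and -2.78 in GalTKO libraries. Its genotypes no longer overlapped, wildtype replicate 3 having moved closer to the other 2 wildtype libraries. The mean difference was -1.12 for Ddx4, -0.51 for Dazl, -1.31 for Sohlh1 and -0.99 for Uchl1, none of them with overlapping groups. For Lhx8, Figla, Nobox and Taf4b it was 0.10, -0.04, 0.13 and 0.15. The 3 GalTKO values of Nobox lay above all 3 wildtype values here, by less than 0.1 at the nearest pair, and the other 3 overlapped. The share of all tested genes without overlap on this scale was not computed, so how common such a separation is remains unknown. With the score as a term in the edgeR fit, the log2 fold changes were -1.21 for Ddx4, -0.48 for Dazl, -1.56 for Sohlh1 and -0.96 for Uchl1. Their adjusted p were 0.0906, 0.209, 0.223 and 0.137. In that edgeR fit Lhx8, Figla, Nobox and Taf4b stood at 0.118, 0.075, 0.115 and 0.223. Their adjusted p were 0.869, 0.953, 0.764 and 0.749. The difference between the 4 lower genes and the other 4 was not tested.

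**Figure D3:**
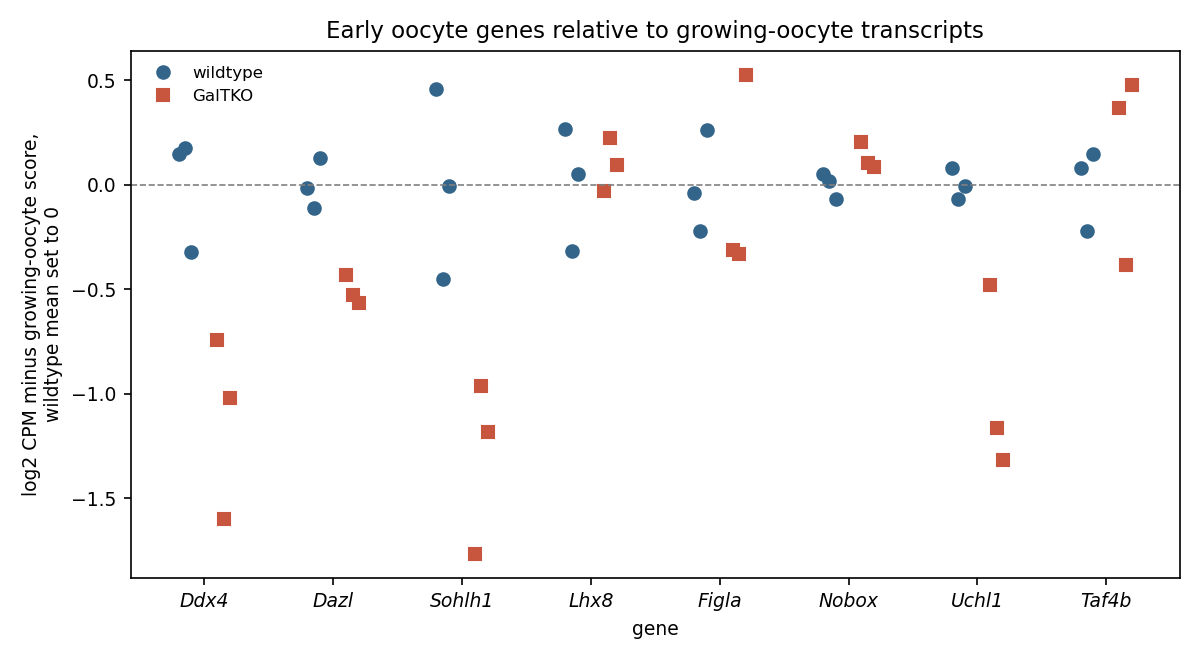
Log2 CPM of each early oocyte gene minus the growing-oocyte score of the same library, with the wildtype mean of each gene set to 0; circles are wildtype and squares GalTKO libraries. Ddx4, Dazl, Sohlh1 and Uchl1 have all 3 squares below all 3 circles, Nobox has all 3 above, and Lhx8, Figla and Taf4b overlap. The share of all tested genes without overlap on this scale was not computed.

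Likeness was measured by the root-mean-square (RMS) difference of centred log2 CPM over the 6 libraries. The genes most like each lower member were sought among 13922 tested protein-coding genes, leaving out predicted and clone names. For Ddx4 they were Cldn8 (RMS difference 0.16), Vcam1 (0.21) and March10 (0.21). For Dazl they were Fnip2 (0.02), Mettl1 (0.05) and Rinl (0.06). Sohlh1 was nearest to Ticam2 (0.16), Hist1h2bn (0.18) and Nnmt (0.20), and Uchl1 to Slc15a3 (0.05), Vcam1 (0.13) and Hmcn2 (0.15). Vcam1 was thus near both Ddx4 and Uchl1. Those 2 members were also nearer to each other (0.28) than either was to any other member. The members' own RMS about their means was 0.67 for Ddx4, 0.24 for Dazl, 0.70 for Sohlh1 and 0.56 for Uchl1. Dazl varied least, so its distances cannot be compared directly with those of the other lower members. These distances describe 6 libraries and carry no test.

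Genes that work with the members were read from lists chosen for their function. Of 19 partners and paralogues, such as the SOHLH1 partner gene Sohlh2 and the TAF4B paralogue gene Taf4, 18 were tested and 0 passed in edgeR. One, Uchl3, a relative of Uchl1, had an unadjusted p under 0.05, at 22.6, 24.1 and 26.2 CPM in wildtype but 28.4, 28.0 and 30.1 CPM in GalTKO libraries (log2 fold change 0.25 ± 0.10, SE; edgeR adjusted p = 0.253). Stat3, a signalling factor also used to induce oocyte-like cells in culture, stood at -0.24 ± 0.10 and Lhx6, the paralogue of Lhx8, at -0.47 ± 0.21. The list median was 0.12.

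Of 21 genes known to lie downstream of FIGLA, NOBOX, LHX8 or SOHLH1, among them the zona pellucida genes and Gdf9, all were tested and 0 passed in edgeR. At an unadjusted p under 0.05 there were 4, all higher in GalTKO ovaries, where 8.19% of all tested genes were higher at that level. They were Oosp1, Oosp2, Oosp3 and H1foo, so all but H1foo are Oosp genes. Oosp1, an oocyte-secreted protein gene, measured 7.92, 8.67 and 5.63 CPM in wildtype but 10.53, 12.25 and 12.44 CPM in GalTKO libraries. It did not overlap between genotypes and had the smallest p of the list (log2 fold change 0.66 ± 0.18, SE; edgeR adjusted p = 0.120). Its neighbour Oosp3 stood at 0.49 ± 0.18 and the oocyte linker histone gene H1foo at 0.37 ± 0.13 (log2, SE). The list median was 0.04, with 10 of 21 values negative. The growing oocyte list, which shares genes with this one, had a median of -0.04. In edgeR 0 of its 23 genes passed; 4 higher and 2 lower ones had an unadjusted p under 0.05. Bcl2l10, a survival gene of the oocyte, stood at 0.45 ± 0.15 and Ooep, of the subcortical maternal complex, at -0.50 ± 0.17.

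In the list of germline RNA regulators 1 gene fell. Piwil2 encodes a PIWI protein that binds small RNAs and represses transposons in germ cells (ENSMUSG00000033644; chromosome 14, 70372477 to 70429383). It measured 4.28, 2.66 and 2.90 CPM in wildtype but 0.658, 0.647 and 0.885 CPM in GalTKO libraries. The groups were far apart, and the log2 fold change was -2.17 ± 0.30 (SE; edgeR adjusted p = 0.0102). It passed in each fit with 1 library left out, with values from -2.32 to -1.93, but not with the third library of both genotypes left out (adjusted p = 0.0684). The genes with the next smallest p did not pass. Rnf17, a tudor domain protein gene, stood at -0.81 ± 0.30 and Pld6, a mitochondrial protein gene, at -1.29 ± 0.48 (log2, SE; edgeR adjusted p = 0.219 and 0.230). Of the 23 genes tested, 13 had negative values, with a median of -0.04.

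In the list for dormancy and activation of primordial follicles, 1 of 20 genes passed. That gene was Amh, the granulosa hormone that restrains recruitment, which rose by 0.76 ± 0.12 (log2, SE; edgeR adjusted p = 0.0214). Cdkn1b, the cell cycle inhibitor p27 that holds follicles dormant, measured 270.4, 356.8 and 377.3 CPM in wildtype but 166.1, 200.3 and 249.5 CPM in GalTKO libraries. The groups did not overlap, and the log2 fold change was -0.71 ± 0.18 (SE; edgeR adjusted p = 0.0953). Foxl2, the granulosa identity factor, stood at -0.27 ± 0.10. Kit and Foxo3, which act in the oocyte, were on the list and did not pass. Among 23 genes of meiotic prophase, 12 were tested and 0 passed in edgeR or reached an unadjusted p under 0.05, while Stra8 and Syce3 had no count in any library. Ythdc2, Msh4 and Sycp3 had the smallest p, at 0.19 ± 0.11, -0.44 ± 0.34 and 0.46 ± 0.38.

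Marker lists of other ovarian cells were read beside these values. The summed level of 9 corpus luteum genes ran from 16288 to 22758 CPM in wildtype and from 9769 to 15512 CPM in GalTKO libraries, without overlap. In that list 1 gene passed, Star (-1.13 ± 0.19, edgeR adjusted p = 0.0263), and none was at 0. Scarb1 and Prlr stood at -1.12 ± 0.23 and -0.92 ± 0.25 and did not pass. Of the 9 genes, 8 had negative values, with a median of -0.69. At an unadjusted p under 0.05 in edgeR there were 6, all lower, where 8.90% of all tested genes were lower at that level. For 12 granulosa genes the sum ran from 8101 to 9670 CPM in wildtype and from 8447 to 10236 CPM in GalTKO libraries, which overlap. Amh alone passed, and Fst stood at -0.38 ± 0.11. The granulosa list split evenly at an unadjusted p under 0.05 in edgeR, with 3 higher and 3 lower. Of all tested genes, 8.19% were higher and 8.90% lower at that level. The granulosa median was 0.01. The part of the luteal and granulosa values in those of the early oocyte genes was not tested.

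**Figure D4:**
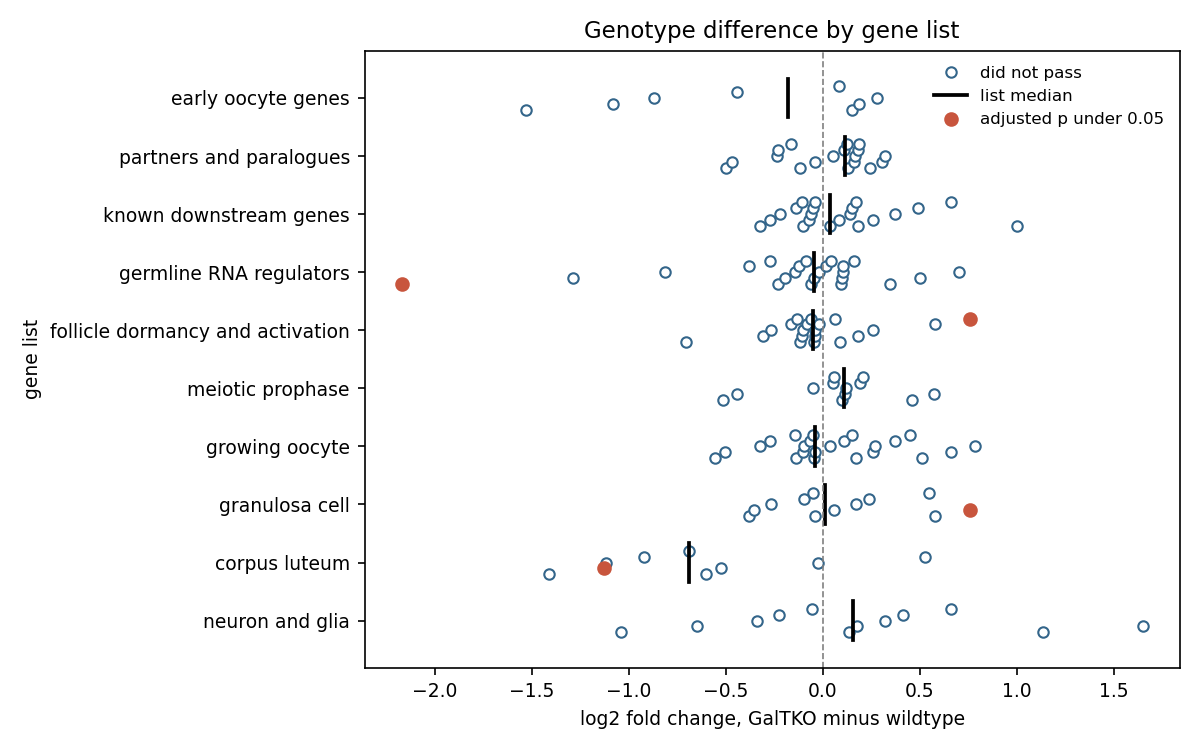
Log2 fold change (GalTKO minus wildtype) of every tested gene of each list; open circles did not pass, filled circles passed edgeR at an adjusted p under 0.05, and the black bar is the list median. Piwil2 is the filled point at -2.17, Amh appears in 2 lists at 0.76, Star is at -1.13, and no early oocyte gene passed.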

How the data were processed

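Total RNA from 6 mouse ovary samples was depleted of ribosomal RNA and made into strand-specific libraries, per the labels' protocols, so unspliced RNA is also counted. The authors deposited a table of unnormalized integer counts for Ensembl genes. The submitters' processing notes name cutadapt 1.16, STAR 2.7.6a, featureCounts 1.6.3, DESeq2 1.30.1 and GRCm38, without settings. Gene names, positions and exon lengths came from GENCODE M21 on GRCm38 (55227 of 55487 identifiers matched), and promoters from RefSeq.

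Samples were grouped by their titles. Every pair of libraries differed by more than sampling noise (chi-square per degree of freedom at least 13.2). In R 4.3.3, edgeR 4.0.16 was run on genes that filterByExpr retained (count of 10, total of 15), with TMM scaling and a robust quasi-likelihood model of genotype, two-sided, with Benjamini-Hochberg adjustment over all 16957 genes. The SE is the log2 fold change divided by the root of F. CPM values were computed from the deposited counts, and log2 CPM for scores and distances used a prior count of 2. All 8 members passed the filter. On simulated counts for GalTKO against wildtype, run on 16658 genes, 65% of 2-fold and 94% of 4-fold changes were recovered, and 20 of 179 calls were false. Genes with a mean under 1 CPM, such as Sohlh1 and Figla, were not among those simulated as changed. Intervals for counts cover counting error only.

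Alternatives were other scalings and filters, DESeq2 1.42.0, limma 3.58.1 voom, protein-coding genes alone, the replicate number, the growing-oocyte score, and each library left out. Named genes were Galt, the members, called genes or the 3 smallest p of each list, and the 3 genes nearest to each member with an unadjusted p under 0.05. Kit, Foxo3, Sohlh2, Taf4, Gdf9, Oosp2, Uchl1os and the genes without counts were named outside that rule. The members and lists were chosen with earlier results of these data known. Figures used Python 3.11.15 with matplotlib 3.10.9. Values of 1 listed marker gene are not reported here.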

Additional observations from a re-analysis of the deposited data

How the results depend on the processing

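With all libraries, edgeR called 433 genes and 0 of the 8 early oocyte genes, 4 of which had an unadjusted p under 0.05. The gene count was 1049 with DESeq2, 877 with no filter on low counts, 260 among protein-coding genes alone, 261 with the growing-oocyte score as a term, and from 165 to 742 with 1 library left out. It was 148 without the third library of both genotypes, an alternative chosen after seeing the data because the wildtype one had the lowest growing-oocyte score and the GalTKO one the highest mitochondrial share. The count of early oocyte genes called was 1 with DESeq2 (Uchl1), 1 with no filter on low counts (Ddx4, adjusted p = 0.0409, in a range from 0.0409 to 0.401 over its alternatives) and from 0 to 1 with 1 library left out; it was 0 in the other alternatives. The count at an unadjusted p under 0.05 was from 2 to 4 with 1 library left out, with 2 without wildtype replicate 1 or 2. Figla was at -0.27 without GalTKO replicate 3 and -0.28 without the third libraries, within a range from -0.27 to 0.26 with 1 library left out; the other 7 genes kept their sign in every alternative that could fit them. Sohlh1 and Figla have no value under the filter of 1 CPM in 3 libraries, which they miss. The replicate number was tried as a block: 321 genes and 0 early oocyte genes were called, and Uchl1 stood at -0.91 (adjusted p = 0.0515). Deviations of same-numbered libraries correlated across genes between -0.0404 and 0.0926, under the limit of 0.1 used for pairing. The numbers were therefore not taken to pair the samples, although 4 of 6 libraries correlated best with their own number. The cause of these shifts was not tested. Depth limits Sohlh1 and Figla most, with at most 28 counts in any library.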
